A study of Bos taurus with 9 samples.

Results

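The 6 genes described here, CXCL13, LTB, CCL19, CCL21, CCR7 and LAMP3, belong to the machinery that builds and organises lymphoid tissue, and they were taken by name from a table of 24616 bovine genes. RNA-Seq was performed on the rectal tissue of 9 steers from a commercial feedlot. Of these animals, 5 (steers 274, 287, 294, 299 and 310) had been selected as super-shedders of E. coli O157 (SS, n = 5), a serogroup of the gut bacterium carried in cattle faeces, and the other 4 (steers 108, 152, 165 and 242) were negative for it (NS, n = 4). Tissue was collected at slaughter, days after this selection. By then, the paper states, not all SS animals still shed at super-shedder level, though all remained positive. The SS animals were naturally colonised, no agent was given to either group, and the paper describes the NS animals as pen-mates. The labels state no breed, age or genotype. Each library was made from powdered whole tissue of biopsies taken just proximal to the rectal-anal junction, so epithelium, muscle and lymphoid tissue were measured together. In such a mixture, fewer cells of a type and less RNA per cell cannot be told apart.

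In a lymph node or a mucosal follicle, B cells and T cells occupy separate zones, and each zone is marked by its own chemokines. CXCL13 is made by stromal and follicular dendritic cells of the B-cell follicle and attracts B cells. LTB, the lymphotoxin beta subunit, sits with lymphotoxin alpha on the surface of lymphocytes and signals to stromal cells, which need this signal to form follicles and to make lymphoid chemokines. CCL19 and CCL21 are made by stromal cells of the T zone, and CCL21 also by lymphatic endothelium. Both are ligands of CCR7, the receptor that brings naive T cells and mature dendritic cells into the T zone. LAMP3 encodes a lysosome-associated membrane glycoprotein that is abundant in mature dendritic cells. The wall of the terminal rectum of cattle is rich in lymphoid follicles.

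In the UMD3.1 assembly, CXCL13 lies on chromosome 6 (94039945 to 94046358), LTB on chromosome 23 (27529855 to 27531864), CCR7 on chromosome 19 (41428916 to 41440070) and LAMP3 on chromosome 1 (84536352 to 84560381). CCL19 (chromosome 8, 77394837 to 77396746) and CCL21 (chromosome 8, 77421388 to 77422532) are separated by 24641 bp and are adjacent coding genes in the RefSeq annotation. In that annotation LTB lies next to TNF, which encodes another member of its cytokine family.

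The libraries held 5412523 (steer 274) to 12278503 (steer 108) reads assigned to genes. Levels are given in CPM, the reads of a gene scaled to the library's total and not divided by gene length, so they are compared between animals and not between genes. Of the 9 named genes of colonic epithelium and the 9 of smooth muscle, each was detected in every library, but their summed levels differed widely. The epithelial sum was 646 CPM in steer 242 (NS), 752 CPM in steer 274 (SS) and 60.9 CPM in steer 294 (SS), against 2451 to 6839 CPM in the other 6 libraries. The smooth muscle sum was lowest in steer 274, at 631 CPM, and highest in steer 294, at 55182 CPM. PTPRC, which encodes the leukocyte antigen CD45, stood at 1344 CPM in steer 242 and at 78.1 CPM in steer 294, against 208 to 309 CPM in the rest. Steers 242, 274 and 294 therefore stand apart from the other libraries in tissue makeup, and the main results are given with and without them.

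**Figure D1:**
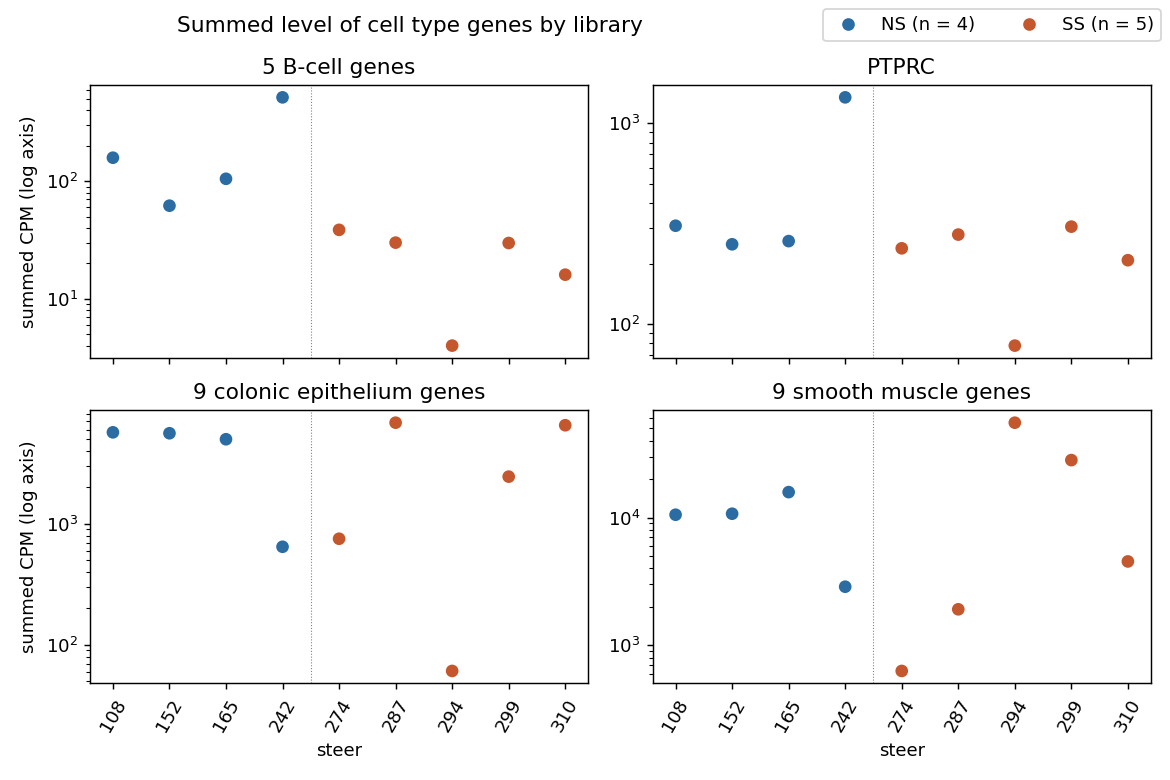
Summed CPM (log axis) of the 5 named B-cell genes, of PTPRC, of 9 colonic epithelium genes and of 9 smooth muscle genes in each of the 9 libraries, with 1 point per steer. Steers 242, 274 and 294 have the lowest epithelial sums (646, 752 and 60.9 CPM), steer 242 has the highest B-cell sum (517 CPM) and steer 294 the lowest (4.00 CPM).

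All 6 genes had a lower mean in SS than in NS, and for 5 of them every SS animal was below every NS animal. CXCL13 differed most, from 127 ± 111 CPM as the NS mean (SD, n = 4) to 5.93 ± 6.24 CPM for SS (SD, n = 5). CCL19 was the exception, because SS steer 299 lay above 3 of the 4 NS animals. Of all 15410 genes tested, 2.1% had every SS value below every NS value. The 6 genes were among those on the study's own list of genes that differed between these same animals, so this count is not independent evidence of their direction.

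CXCL13, the follicle ligand, was measured at 75.3, 72.9, 66.6 and 293 CPM in NS steers 108, 152, 165 and 242. In SS steers 274, 287, 294, 299 and 310 it was at 4.25, 16.6, 0.801, 5.63 and 2.34 CPM. The lowest NS animal was 4.01 times the highest SS animal, the widest gap between groups among the 6 genes. The value in steer 294 rests on 6 reads (95% Poisson interval 0.294 to 1.74 CPM, counting error only), so its place at the bottom of the SS group is known only roughly. NS steers 108, 152 and 165 lay close together, with a coefficient of variation of 6.27%.

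LTB, the lymphocyte signal to stroma, was at 22.2, 11.98, 16.9 and 152 CPM in NS steers 108, 152, 165 and 242. SS steers 274, 287, 294, 299 and 310 had 5.36, 7.88, 1.33, 6.20 and 4.25 CPM. The groups did not overlap, and the lowest NS animal (steer 152) was 1.52 times the highest SS animal (steer 287). Steer 242 alone held 74.9% of the NS sum, and it was 8.94 times the mean of the other 3 NS animals.

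CCL19, a T-zone ligand of CCR7, was nearly the same in NS steers 108, 152 and 165 (22.6, 22.1 and 22.6 CPM, coefficient of variation 1.28%) and stood at 181 CPM in steer 242. The SS values, for steers 274, 287, 294, 299 and 310, were 9.98, 8.81, 3.87, 25.2 and 6.16 CPM. Its groups overlapped through steer 299 only, where 179 reads gave a 95% Poisson interval of 21.6 to 29.2 CPM.

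CCL21, the other CCR7 ligand, was at 27.7, 30.8, 24.0 and 366 CPM in NS steers 108, 152, 165 and 242. SS steers 274, 287, 294, 299 and 310 had 2.22, 10.2, 16.8, 8.87 and 9.03 CPM, with no overlap between the groups. Steer 294, the lowest of all 9 animals for each of the other 5 genes, was the highest SS animal for CCL21, and steer 274 was the lowest.

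CCR7, the shared receptor, was at 14.2, 8.72, 13.7 and 160 CPM in NS steers 108, 152, 165 and 242. The SS values, for steers 274, 287, 294, 299 and 310, were 2.59, 5.84, 0.400, 3.66 and 4.77 CPM, again without overlap. The value in steer 294 rests on 3 reads (95% Poisson interval 0.0826 to 1.17 CPM) and that in steer 274 on 14 reads.

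LAMP3, the dendritic cell gene, showed the smallest difference between the groups, at 25.003, 17.8, 20.7 and 128 CPM in NS steers 108, 152, 165 and 242. In SS steers 274, 287, 299 and 310 it was at 15.0, 15.2, 15.6 and 13.6 CPM, and in steer 294 it was at 3.47 CPM. The lowest NS animal was 1.14 times the highest SS animal, so the groups were separated by a narrow margin.

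**Figure D2:**
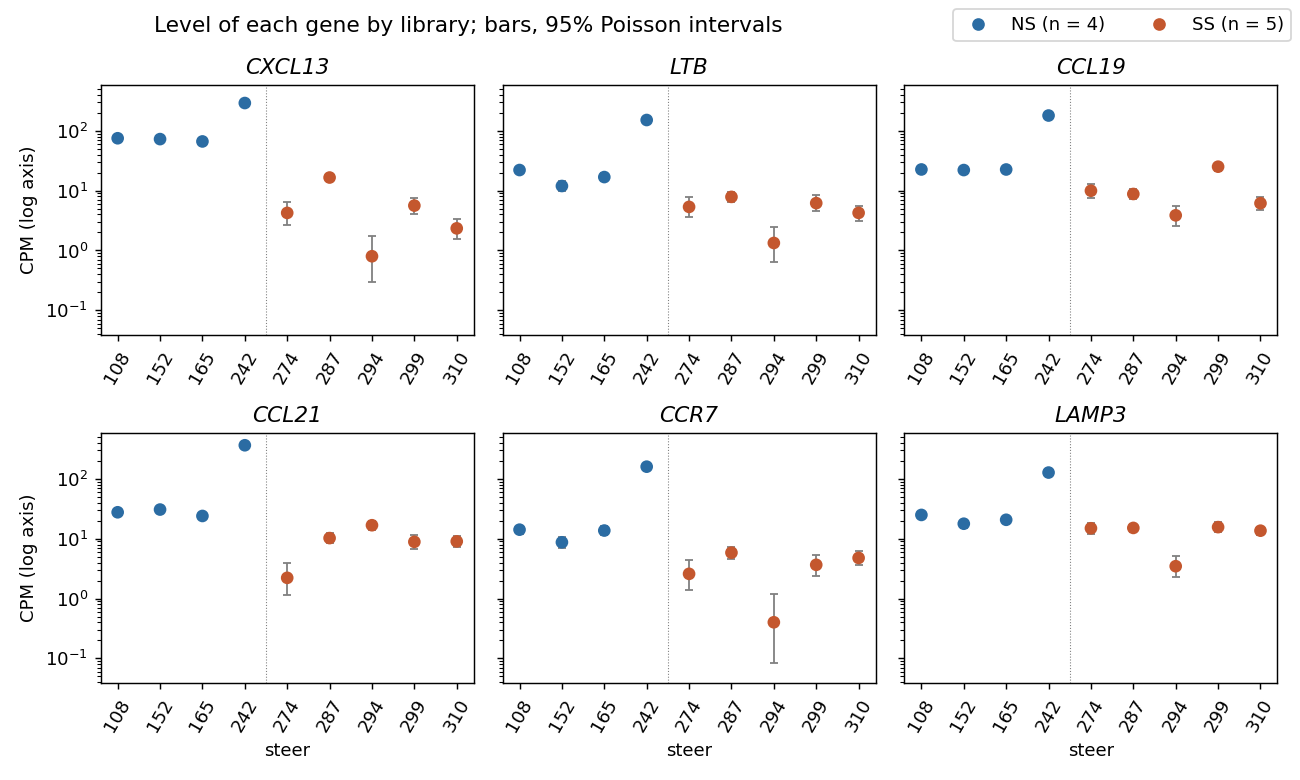
CPM on a log axis for each of the 6 genes in each library, NS left and SS right of the dotted line, with 95% Poisson intervals that cover counting error only. Steer 242 is the highest library for all 6 genes, steer 294 is the lowest for all but CCL21, and SS steer 299 reaches 25.2 CPM for CCL19, above NS steers 108, 152 and 165.

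Steer 242 had the highest value of the 9 libraries for all 6 genes, which was also so for 27.8% of all genes tested. It held between 57.7% (CXCL13) and 81.6% (CCL21) of the NS sum, so the ratio of group means depends strongly on it. The mean in NS was 21.4 times the mean in SS for CXCL13, 14.3 times for CCR7, 11.9 times for CCL21, 10.1 times for LTB, 5.74 times for CCL19 and 3.81 times for LAMP3. By medians, the same ratios were 17.4, 3.81, 3.24, 3.64, 2.57 and 1.53. Without steers 242, 274 and 294, the ratio of means was 8.74 for CXCL13 and lay between 1.43 (LAMP3) and 2.93 (CCL21) for the other 5 genes. In those 6 libraries the mean of CXCL13 was 71.6 ± 4.49 CPM over the NS animals, against 8.19 ± 7.46 CPM over the SS animals (SD, n = 3 each). The groups still did not overlap for the same 5 genes, as for 5.13% of all genes tested, and when only steer 242 was left out the number was again 5, beside 2.87% of all genes.

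Steer 294 was the lowest of the 9 libraries for 5 of the 6 genes, which held for 29.6% of all genes tested. The mean of the other 4 SS animals was 10.5 times its value for CCR7, 8.999 times for CXCL13, 4.44 times for LTB, 4.28 times for LAMP3 and 3.24 times for CCL19. For CCL21 that ratio was 0.451. The same library had the highest smooth muscle sum and the lowest epithelial, B-cell and PTPRC levels, and the part of these in its values was not tested.

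On the log2(CPM + 0.5) scale, on which changes of low genes are understated, the limma estimate for SS against NS was -4.51 ± 0.72 (log2 fold change ± SE) for CXCL13. It was -2.84 ± 0.87 for CCR7, -2.64 ± 0.84 for CCL21, -2.58 ± 0.73 for LTB, -2.04 ± 0.71 for CCL19 and -1.52 ± 0.64 for LAMP3. None of the 6 passed an adjusted p-value below 0.05 (limma, Benjamini-Hochberg over 15410 genes), with an adjusted p of 0.612 for CXCL13 and 0.928 for each of the other 5. No gene of the table was called lower in SS by this rule (0%), and the lowest adjusted p was 0.234. All 6 had an unadjusted limma p below 0.05, from 1.19e-04 for CXCL13 to 0.0393 for LAMP3, as did 555 genes that were lower in SS (3.6% of those tested) and 55 that were higher. With another scaling alone the numbers were 267 lower and 191 higher (median-of-ratios) or 307 lower and 162 higher (TMM), and DESeq2, which also uses another model, gave 400 lower and 497 higher. An estimate below -1 was found for all 6 and for 4.48% of all genes. The median estimate over all genes was -0.13, and it moved to 0.01 when libraries were scaled by median-of-ratios factors, which changed no direction among the 6. Without steer 242 the estimates of CCL19, CCL21 and LAMP3 were smaller by over 1.5 times, at -1.29, -1.71 and -0.88. Without steers 242, 274 and 294, CXCL13 stood at -3.43 and the other 5 between -1.498 (CCL21) and -0.49 (LAMP3), and no gene was called.

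The genes came from the study's list of genes differing between these animals, so p-values for SS against NS in these 6 partly restate that choice and are no independent evidence. An exact two-sided permutation test over the animals gave p = 0.0159, the smallest that 4 against 5 animals allow, for CXCL13, LTB, CCL21, CCR7 and LAMP3. For CCL19 the exact permutation p was 0.0635. Of all genes tested, 5.5% were lower in SS with such a p below 0.05. Of the count-based tools, edgeR called no gene (0% lower in SS, lowest adjusted p 0.904), while all 6 genes and 2.32% of all genes were lower in SS at an unadjusted p below 0.05. DESeq2 called 19 genes, all lower in SS (0.125% of those with an adjusted p). CXCL13 was 1 of the 19, at a log2 fold change of -4.18 ± 0.79 and an adjusted p of 4.54e-04 (DESeq2), and the tool returned no p-value for the other 5. With weights for library quality, limma called 2 genes lower in SS (0.013%), and CXCL13 was 1 of them with an adjusted limma p of 0.0400. In that weighted fit the estimates of CCR7 (-1.85), CCL21 (-1.72), CCL19 (-1.02) and LAMP3 (-0.73) were smaller by over 1.5 times, with unadjusted p of 0.0692 for CCL19 and 0.0809 for LAMP3, and all 5 genes other than CXCL13 had an adjusted limma p of 0.841.

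**Figure D3:**
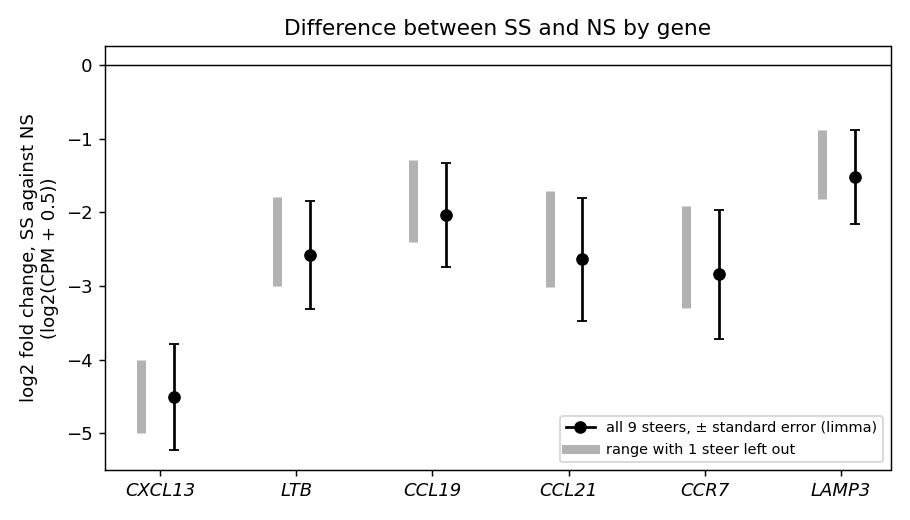
Log2 fold change of SS against NS for each gene (black points, ± SE, limma on log2(CPM + 0.5), 9 steers) beside the range of estimates with 1 steer left out at a time (grey bars). Every range stays below 0, from -4.99 to -4.00 for CXCL13 and from -1.81 to -0.88 for LAMP3.

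The 2 genes of a ratio share the library's scaling, and 8 ratios of CPM + 0.5 were compared between the groups. Both genes of each ratio came from the study's list, and the ratios were chosen with earlier results of these data known. The p-values of the ratios are therefore no independent evidence. The added 0.5 CPM pulls ratios of low values towards 1. CXCL13 was lower in SS relative to LTB, the other follicle gene. The ratio of CXCL13 to LTB was 3.35, 5.88, 3.86 and 1.92 in NS steers 108, 152, 165 and 242. The SS ratios, for steers 274, 287, 294, 299 and 310, were 0.811, 2.04, 0.709, 0.916 and 0.598, so that steer 287 lay above steer 242 and the groups otherwise separated. The mean difference was -1.92 ± 0.45 log2 units (SE), with an exact permutation p of 0.0317 and an adjusted p of 0.0847 over the 8 ratios.

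CXCL13 was lower in SS relative to CCL19 too. That ratio was 3.28, 3.24, 2.90 and 1.62 in NS steers 108, 152, 165 and 242, and 0.453, 1.84, 0.298, 0.239 and 0.427 in SS steers 274, 287, 294, 299 and 310. The difference was -2.47 ± 0.57 log2 units (exact permutation p = 0.0317, adjusted p = 0.0847), and the overlap again came from steers 287 and 242. Relative to CCL21 the difference was -1.87 ± 0.94 log2 units (exact permutation p = 0.0952, adjusted p = 0.190), and the SS values spread from 0.0751 in steer 294 to 1.75 in steer 274. The difference changed to -2.29 without steer 242 (exact permutation p = 0.0357) and to -1.17 without steer 294 (exact permutation p = 0.171). In the 6 libraries left without steers 242, 274 and 294, the 3 differences were -2.03, -2.46 and -1.93 log2 units, each with an exact permutation p of 0.1, the smallest that 3 against 3 allow.

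LAMP3 differed from CCR7 in the opposite sense, and this was the ratio whose groups did not overlap. LAMP3 over CCR7 was 1.74, 1.99, 1.496 and 0.798 in NS steers 108, 152, 165 and 242, and 5.01, 2.47, 4.41, 3.88 and 2.68 in SS steers 274, 287, 294, 299 and 310. The difference was 1.32 ± 0.35 log2 units (exact permutation p = 0.0159, adjusted p = 0.0847). In steer 294 the ratio of raw reads was 26 to 3, or 8.67 with a 95% binomial interval (exact) of 2.66 to 44.7, and in steer 274 it was 5.79 (3.26 to 11.1). Without steers 242, 274 and 294 the difference was 0.77 log2 units (exact permutation p = 0.1), smaller by over 1.5 times.

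The other ratios gave no difference past the threshold. CCR7 relative to CCL19 differed by -0.80 ± 0.51 log2 units (exact permutation p = 0.190) and CCR7 relative to CCL21 by -0.20 ± 0.79 (exact permutation p = 1). LTB relative to CCR7 differed by 0.26 ± 0.26 (exact permutation p = 0.381). Without steers 242, 274 and 294 these values were -0.29 for CCR7/CCL19, 0.24 for CCR7/CCL21 and -0.14 for LTB/CCR7, the last 2 with the opposite sign. With 1 steer left out, LTB/CCR7 ranged from 0.13 to 0.44 and CCR7/CCL19 from -1.10 to -0.53. In all, 3 of the 8 ratios had an exact permutation p below 0.05 and none had an adjusted p below 0.05.

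**Figure D4:**
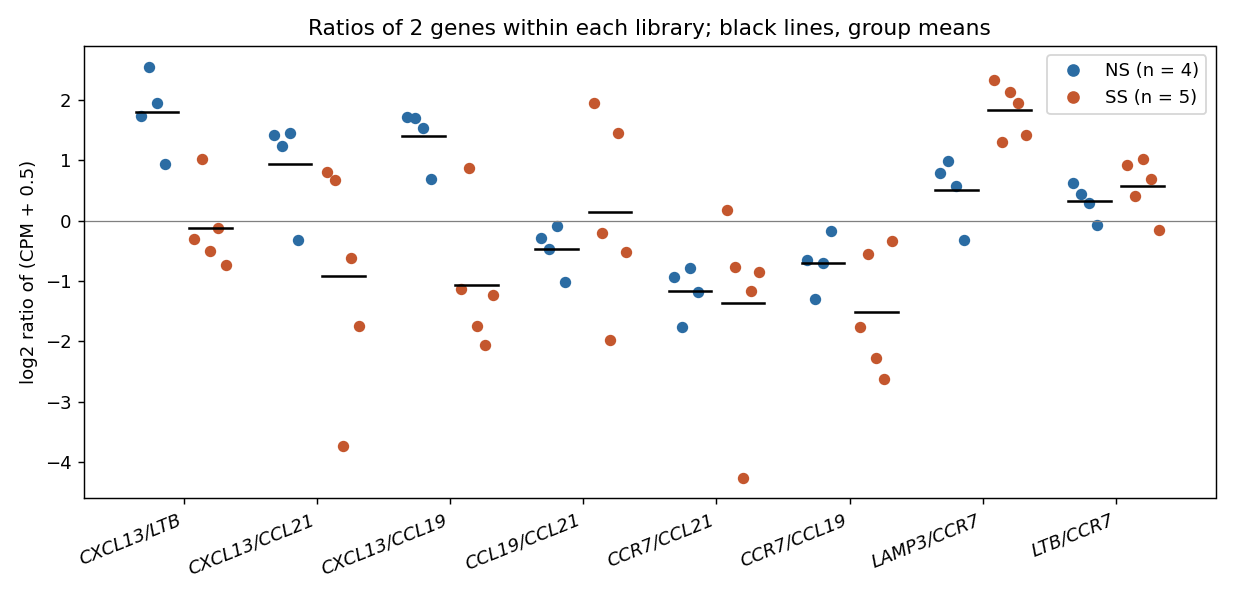
Log2 ratios of (CPM + 0.5) for 8 pairs of genes, 1 point per steer, with group means as black lines. LAMP3/CCR7 is the pair without overlap (NS at most 0.99, SS at least 1.30), and CCL19/CCL21 spreads from -1.99 to 1.95 within SS.

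The ratio of the adjacent T-zone ligands, CCL19 over CCL21 in reads, was 0.818, 0.720, 0.941 and 0.494 in NS steers 108, 152, 165 and 242. In SS it was 4.50 (95% exact binomial interval 2.38 to 9.24) in steer 274, 0.860 (0.655 to 1.13) in steer 287, 0.230 (0.148 to 0.347) in steer 294, 2.84 (2.12 to 3.85) in steer 299 and 0.683 (0.498 to 0.932) in steer 310. The ratio was above every NS value in steers 274 and 299 and below every NS value in steer 294. The SD of the log2 ratio was 0.40 in NS and 1.59 in SS, and 0.19 and 1.06 without steers 242, 274 and 294. The group means differed by 0.60 ± 0.74 log2 units (exact permutation p = 0.460), or 0.52 in those 6 libraries, 0.15 without steer 274, 0.27 without steer 299 and 1.13 without steer 294, and the difference in spread was not tested. Steers 274 and 294 are among the epithelium-poor libraries, and steer 299 had the second highest smooth muscle sum, 28129 CPM.

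Over all 6 genes, the mean log2 level of the follicle genes (CXCL13 and LTB) minus that of the T-zone genes (CCL19, CCL21, CCR7 and LAMP3) was 0.90, 0.70, 0.75 and 0.14 in NS steers 108, 152, 165 and 242. It was -0.20, 0.26, -1.39, -0.82 and -1.17 in SS steers 274, 287, 294, 299 and 310. The means were 0.62 in NS and -0.66 in SS, a difference of -1.29 log2 units that overlapped through steer 287, which was above steer 242. Without steers 242, 274 and 294 the difference was -1.36. This score has no test. LTB and CCR7, a gene from either side of it, kept the smallest spread of any pair over the 9 animals (SD of the log2 ratio 0.40) and over the 6 without these 3 (0.30).

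Around their own group means, LTB and LAMP3 moved most closely together, with an SD of 0.29 log2 units for their ratio, followed by LTB and CCR7 with 0.41 and CCR7 and LAMP3 with 0.51. Each of the 5 pairs with CCL21 had an SD of at least 1.23, and that with CXCL13 was the widest of all at 1.53. This order rests on steers 242, 274 and 294. Without them CCL21 and LAMP3 were the closest pair, at 0.26, followed by LTB and LAMP3 (0.27), CCR7 and LAMP3 (0.28) and LTB and CCR7 (0.32), and the widest pair was CXCL13 and CCL19 at 1.08. With 4 and 5 animals that stand in separate groups no correlation is given. Over all 9 animals the SD of the log2 level was 2.64 for CXCL13, 2.04 for CCR7, 1.93 for CCL21, 1.79 for LTB, 1.56 for CCL19 and 1.29 for LAMP3.

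The genes most like each member were sought among 12053 genes with a mean of at least 5 CPM, of which 2044 carry a name, as the smallest SD of the group-centred log2 difference over the 9 animals. Only named genes are given. Names came from the study's tables, which include its list of genes differing between these animals, so genes on that list were more likely to be named. SH2D1A, TCF7, THEMIS, GIMAP5, LEF1 and SASH3 stood on it. For CXCL13 the nearest named genes were VCAM1 (0.49), an adhesion molecule of stromal and follicular dendritic cells, LIMD2 (0.55) and CD48 (0.57), a surface protein of leukocytes. No other gene of the 12053 was closer to CXCL13 than VCAM1. For LTB they were SH2D1A (0.25), an adaptor of T-cell signalling, TRAF3IP3 (0.25) and TCF7 (0.28), a transcription factor of T cells. For CCR7 they were THEMIS (0.35), which acts in T-cell development, TRAF3IP3 (0.42) and GIMAP5 (0.42), a GTPase of lymphocytes.

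CCL19 was most like TCF7 (0.35), LEF1 (0.49), a relative of TCF7, and PTPRC (0.49). LAMP3 tracked SASH3 (0.16), a lymphocyte signalling adaptor, PTPRC (0.17) and CD48 (0.20), the smallest distances found for any member in all 9 libraries. For CCL21 they were RASGRP2 (0.75), C7 (0.92), a complement component, and EHD3 (0.94). Unnamed genes were closer than the first name for every member but CXCL13. There was 1 such gene each for CCL19 and CCR7 and 3 each for LTB, CCL21 and LAMP3. As many as 24 genes were closer to CCL21 than EHD3. When steer 242 was left out, 3 of the 3 names returned for CCL19, 2 for CXCL13, 1 each for LTB and LAMP3 and 0 for CCL21 and CCR7, so most names for LTB, LAMP3, CCL21 and CCR7 rest on that library. The nearest named genes were then ALCAM (0.27), an adhesion molecule, for CCL21, RAC2 (0.15), a GTPase of blood cells, for CCR7, PTPRC (0.22) for LTB and LCP1 (0.12), an actin-bundling protein of leukocytes, for LAMP3. In that order, 2, 2, 8 and 1 unnamed genes were closer still. When the values were not centred on the group means, the B-cell receptor gene CD79B was nearest to LTB (0.38) and to CCR7 (0.44), and MS4A1 to CXCL13 (0.91), in place of the names above.

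Each member was also set against lymphocyte genes of the same library. The 5 named B-cell genes, of 8 listed, were MS4A1 (CD20), CD79A and CD79B (the signalling chains of the B-cell receptor), CD22 and FCRLA. Their median log2 fold change was -3.03 beside -0.13 over all genes, and their median difference was -2.34 without steer 242 and -1.86 without steers 242, 274 and 294. All 5 were lower in SS at an unadjusted limma p below 0.05 (3.6% of all genes) and 3 had no overlap (2.1% of all genes), none at an adjusted p below 0.05. All 5 stood on the study's list of genes that differed between these same animals, as did the 6 genes themselves. A difference between a member and a reference gene depends on which of them that list held, so the differences from the B-cell genes, CD3G and PTPRC are given as a description with no test.

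LTB minus the mean of the B-cell genes was 0.30 ± 0.49 in NS and 0.54 ± 0.26 in SS (log2 units, SD), and CCR7 minus that mean was -0.02 ± 0.77 and -0.04 ± 0.60. Without steers 242, 274 and 294 the group difference of LTB was 0.50 ± 0.16 (SE) with no overlap, against 0.23 ± 0.27 in all 9 libraries, and that of CCR7 was 0.64 ± 0.36 against -0.02 ± 0.47. CXCL13 differed by -1.69 ± 0.44 relative to the B-cell genes, with an overlap between steers 287 and 108, and by -1.52 ± 0.66 in the 6 libraries. LAMP3 minus the B-cell mean lay between 0.01 and 0.89 in NS and between 1.52 and 2.21 in SS, a difference of 1.29 ± 0.23, and of 1.41 ± 0.32 in the 6 libraries. CCL19 differed by 0.78 ± 0.45 and CCL21 by 0.18 ± 0.94, and without the 3 libraries these were 0.93 ± 0.62 and 0.41 ± 0.50.

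Of the 9 T-cell genes listed only CD3G, a chain of the T-cell receptor complex, was named in the table. CD3G was at 22.3, 19.5, 24.6 and 107 CPM in NS steers 108, 152, 165 and 242, and at 14.4, 28.9, 2.67, 17.3 and 20.0 CPM in SS steers 274, 287, 294, 299 and 310, with a log2 fold change of -1.27 ± 0.70 (limma, adjusted p = 0.928). The log2 difference was -0.71 without steer 242 and -0.03 without steers 242, 274 and 294. Relative to CD3G, which was not on the study's list, the SS mean minus the NS mean was -3.24 ± 0.36 for CXCL13, -1.57 ± 0.38 for CCR7 and -1.32 ± 0.35 for LTB (log2 units, SE), each without overlap between the groups. CCR7 minus CD3G ran from -2.27 to -1.82 in SS and from -1.12 to 0.59 in NS. The groups overlapped for CCL21 (-1.37 ± 0.92), CCL19 (-0.77 ± 0.52) and LAMP3 (-0.25 ± 0.25). The last 2 lay between -1.04 and -0.49 and between -0.40 and -0.09 with 1 steer left out, the smallest in each case without steer 287. The value of CCL21 turned on single libraries, at -2.16 without steer 294, -0.93 without steer 274 and -1.002 without steer 242. Without all 3 of these libraries, CXCL13 stood at -3.40, CCL21 at -1.46, LTB at -1.37 and CCR7 at -1.23 with no overlap, and CCL19 (-0.94) and LAMP3 (-0.46) overlapped. The measure of T cells here is this 1 gene.

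PTPRC was added as a general leukocyte measure after the values had been seen, and it was itself among the nearest named genes to LAMP3 and CCL19. Its own log2 fold change was -1.01 ± 0.57 (limma, adjusted p = 0.928), and the log2 difference was -0.43 without steer 242 and -0.06 without steers 242, 274 and 294. Relative to PTPRC, the difference was -3.50 ± 0.39 for CXCL13, -1.83 ± 0.43 for CCR7, -1.58 ± 0.26 for LTB and -0.52 ± 0.11 for LAMP3 (log2 units, SE), without overlap. LTB minus PTPRC was confined to -5.51 to -5.06 in the 5 SS animals, which included steer 294, against -4.32 to -3.14 in NS. LAMP3 minus PTPRC ran from -4.31 to -3.88 in SS and from -3.77 to -3.39 in NS. For CCL19 it was -1.03 ± 0.31, with an overlap through steer 299. For CCL21 it was -1.63 ± 0.78 with an overlap through steer 294, and it was -2.23 without steer 294, -1.16 without steer 274 and -1.28 without steer 242. Without all 3 of these libraries the differences were -3.37 for CXCL13, -1.44 for CCL21, -1.34 for LTB, -1.21 for CCR7 and -0.44 for LAMP3, each with no overlap, and -0.92 for CCL19, which overlapped.

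**Figure D5:**
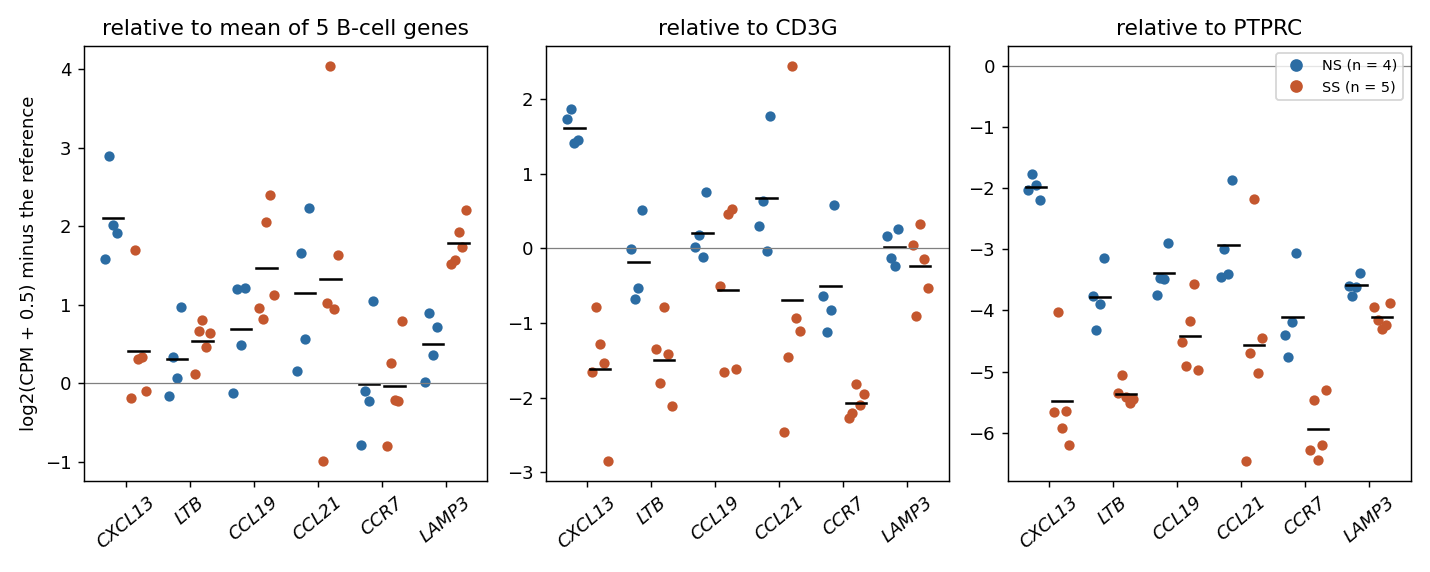
Log2(CPM + 0.5) of each gene minus the mean of 5 B-cell genes (left), CD3G (middle) or PTPRC (right) in the same library, 1 point per steer, with group means as black lines and axes that differ between panels. CXCL13, LTB and CCR7 have no overlap relative to CD3G or PTPRC, and LAMP3 lies above the NS values in every SS animal relative to the B-cell genes (1.52 to 2.21 against 0.01 to 0.89) and below them relative to PTPRC.

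Other genes of the same pathways could be followed only where the table gave a name. Of 17 listed genes of the homeostatic chemokine system 2 were named. CXCR4, the CXCL12 receptor, had an NS mean of 105 ± 97.5 CPM and an SS mean of 35.7 ± 24.2 CPM (SD), with a log2 fold change of -1.43 ± 0.61 (unadjusted p = 0.0407, limma, and exact permutation p = 0.0952), and its groups overlapped. The log2 difference of CXCR4 was -0.89 without steer 242. CXCL12, a stromal chemokine, was at 146 ± 73.5 and 146 ± 60.1 CPM, with a log2 fold change of 0.02 ± 0.39. Of 25 listed genes of the lymphotoxin and NF-kB pathway 2 were named as well. BIRC3, an NF-kB target that restrains the non-canonical branch, was at 196 ± 122 and 84.1 ± 23.3 CPM (log2 fold change -1.08 ± 0.35, unadjusted p = 0.0121, limma, exact permutation p = 0.0317, and a log2 difference of -0.71 without steer 242), and ID2, a transcription regulator needed for lymphoid tissue inducer cells, was at 77.1 ± 10.6 and 75.4 ± 22.2 CPM (-0.07 ± 0.23). None of the 4 had an adjusted limma p below 0.05, so in each list 1 of 2 named genes was lower in SS at an unadjusted limma p below 0.05, beside 3.6% of all genes.

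Of the 6 listed genes of follicular dendritic cells 2 were named. They differed from each other over all 9 libraries, and less so without steers 242, 274 and 294. VCAM1 was at 200, 155, 165 and 595 CPM in NS steers 108, 152, 165 and 242, and at 68.9, 163, 21.6, 98.7 and 90.6 CPM in SS steers 274, 287, 294, 299 and 310. Steer 287 lay above steer 152, as it was the SS animal nearest to NS for CXCL13. The log2 fold change of VCAM1 was -1.66 ± 0.59 (exact permutation p = 0.0317), with a log2 difference of -1.22 without steer 242 and of -0.60 without steers 242, 274 and 294, and that of CLU, a secreted chaperone of many cell types, was -0.03 ± 0.50 (exact permutation p = 1). The log2 difference of CLU was 0.17 without steer 242 and -0.49 without steers 242, 274 and 294. IDO1, the 1 named gene of 10 listed for mature dendritic cells, had a log2 fold change of 0.36 ± 0.60 (exact permutation p = 0.619), beside -1.52 for LAMP3. Without steers 242, 274 and 294 the difference was 0.88 for IDO1, beside -0.49 for LAMP3.

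CHST4, the 1 named gene of 10 listed for high endothelial venules and lymphatic endothelium, was at 41.0, 25.7 and 2.67 CPM in the epithelium-poor steers 242, 274 and 294 and at 153 to 458 CPM elsewhere (log2 fold change -1.56 ± 1.43, exact permutation p = 0.365). Its levels therefore moved with the epithelial sum. None of the 9 epithelial and 9 smooth muscle genes had an unadjusted limma p below 0.05, and no listed gene of squamous epithelium was named.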

How the data were processed

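Ribosomal RNA-depleted stranded total RNA libraries of rectal tissue from 9 steers were sequenced by the authors. The submitters' processing notes name TopHat2, HTSeq, edgeR and UMD3.1, and the deposited values are CPM of 24616 Ensembl genes, with 1 column per steer (0 further columns). Dividing CPM by the value of 1 read gave whole reads (within 0.01 reads) for 100% of values, which served as counts for edgeR and DESeq2. The study's own test used FPKM, which were not used here. Symbols came from identifier columns of the study's tables and matched 2052 genes. Sequences are not reported.

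The 15410 genes that reached 0.5 CPM in 4 or more steers were fitted with limma 3.58.1 (R 4.3.3, eBayes with trend) on log2(CPM + 0.5), and a gene was called when its adjusted p was under 0.05 and its log2 fold change beyond 1 in size. edgeR 4.0.16 (quasi-likelihood) and DESeq2 1.42.0 were alternatives. Single values were compared by exact two-sided permutation over steers (scipy 1.17.1), with Benjamini-Hochberg adjustment over the 8 ratios. Tests of the members against the B-cell genes, CD3G and PTPRC are not reported, because the members and the B-cell genes came from the study's list of differing genes and PTPRC was chosen after the values were seen. The scripts were tested on simulated data. Each steer is 1 sample and a separate animal. Read intervals (95%, Poisson or exact binomial) cover counting error only, since reads are not independent molecules.

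The 6 genes, the ratios and the marker lists were chosen with earlier results of these data known. The genes named beside the 6 were, for each, the 3 named genes nearest to it, and from each list up to 4 with the largest and 2 with the smallest absolute log2 fold change, plus those a small count needed. PTPRC as a reference and the exclusion of steers 242, 274 and 294 were added after seeing the data. Columns of the authors' own comparisons were not used.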

Additional observations from a re-analysis of the deposited data

Results flagged for a closer look

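Within-group spread was examined by Dixon's ratio (the gap of the extreme animal to its neighbour over the group's range, on log2 values) in 30 groups, and 7 exceeded the 95% critical value. Chance gives about 1 in 20 for independent groups, but these share the same libraries and are not independent. All but 1 of the 7 came from steer 242. In NS, steer 242 was far above the other 3 animals for CXCL13 (ratio 0.917), CCL19 (0.989), CCL21 (0.910), CCR7 (0.837) and LAMP3 (0.830). The ratio of CXCL13 to CCL21 was far lower in steer 242 than in the other NS animals (0.876). In SS, steer 294 was far below the other 4 animals for LAMP3 (0.905). Both libraries also stood apart in epithelial genes and PTPRC, and steer 294 in smooth muscle genes, as given above, and the part of this in the values was not tested.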

How the results depend on the processing

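No paired analysis was possible, because no steer number is shared by NS and SS and the sample titles give no pen. The 6 log2 fold changes kept their direction under every alternative run. No gene was called under the other pseudocounts, filters and scalings or with edgeR (357 genes lower and 240 higher at an unadjusted p below 0.05, against 555 and 55 with limma). DESeq2 called 19 and quality weights 2, and CXCL13 passed in both (log2 fold change -4.18 and -3.92). The causes were not tested.

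With 1 steer left out at a time, 0 to 1 genes were called (1 without steer 108, 1 without steer 299, neither among the 6), and 5 to 6 of the 6 genes had no overlap. The difference ranged from -2.21 to -1.67 for CXCL13/LTB and from -2.96 to -2.22 for CXCL13/CCL19, with exact permutation p from 0.0286 to 0.0714 for both. It ranged from -1.24 to -0.86 for CCL19 minus PTPRC and from -2.01 to -1.43 for CXCL13 minus the B-cell genes. It ranged from -2.30 to -1.17 for CXCL13/CCL21, from -2.16 to -0.93 for CCL21 minus CD3G and from -2.23 to -1.16 for CCL21 minus PTPRC. Relative to the B-cell genes it ranged from 0.08 to 0.46 for LTB and from 0.51 to 0.96 for CCL19. Differences near 0 changed sign, from -0.59 to 0.52 for CCR7/CCL21 (0.52 without steer 294), from -0.50 to 0.76 for CCL21 minus the B-cell genes and from -0.28 to 0.33 for CCR7 minus the B-cell genes, which was also 0.034 with a pseudocount of 0.1 CPM. None of these signs was called.

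Depth limits CXCL13, LTB and CCR7 in steer 294 and CCL21 and CCR7 in steer 274, each at 14 reads or fewer. CCL19/CCL21 ranged from 0.15 to 1.13 with 1 steer left out. Without centring on the group means, none of the 3 nearest named genes of CXCL13, LTB and CCR7 was kept (0 each), and 2 each were kept for CCL19, CCL21 and LAMP3.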
